A study of Mus musculus with 4 samples.

Results

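The immediate early response genes examined here were 10 genes chosen by name, Fos, Fosb, Jun, Junb, Egr1, Atf3, Ier2, Dusp1, Nr4a1 and Klf6, out of the 54021 gene symbols in the count table. All 10 were found in the table, and their reads made up between 0.0544% and 0.0952% of the counts of a library. They were measured by RNA-seq of reconstituted ovaries (rOvaries), which are grafts grown under the kidney capsule. The 4 libraries were INK128 replicates 1 and 2 and Control replicates 1 and 3, and the comparison asks what treatment of the recipient with INK128, an inhibitor of the kinase mTOR, does to transcripts of the graft.

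All recipients were second-generation Terc-/- females on a C57BL/6 background, about 10 weeks old on average, from which both ovaries had been removed. The recipients of the control grafts thus lacked the telomerase RNA gene as well. Each graft had been made from 1 or 2 aggregates of primordial germ cells and gonadal somatic cells, mixed 1 to 6, from female gonads of E12.5 fetuses of C57BL/6 mothers and C57BL/6-actin-GFP fathers. Donor cells did not carry the deletion of the recipient, and the deposited counts do not separate them from any recipient cells in the graft. INK128 was given in the drinking water, at 30 μM or about 1.8 mg per kg per day in the study's methods and at 0.75 μM per g in the labels, and rOvaries were collected 4 weeks after transplantation. The labels number the libraries but do not say whether each came from a separate animal, so p-values measure the spread between these libraries, which may in part be technical.

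Immediate early genes are transcribed within minutes of a stimulus from factors the cell already holds, such as SRF with its ternary complex partners and CREB, once growth factor, hormone or stress signals reach them through MAP kinases or cAMP. FOS and JUN proteins pair to form the transcription factor AP-1, EGR1, KLF6 and NR4A1 are other DNA-binding factors, and DUSP1 is a phosphatase that switches the MAP kinases off again. In the ovary several of them are induced in granulosa cells by the surge of luteinizing hormone, and in any tissue they can also be induced by dissection and handling before the RNA is fixed.

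The sequences just upstream of 4 of the genes are shown so that the letters of such sites can be seen for the called gene, Dusp1, and for Fos, Junb and Nr4a1, which were picked after their values were seen for their different order among the libraries. Each is the 160 bases that end at the base before the RefSeq start (GRCm38.p6), 5′ to 3′ on the strand of the gene, at chr17:26508473-26508632 for Dusp1, chr12:85473730-85473889 for Fos, chr8:84978749-84978908 for Junb and chr15:101266686-101266845 for Nr4a1. Capitals mark the letters of a full cAMP response element (CRE, TGACGTCA), of a half-site of it (TGACG on either strand) or of a TATA box (TATAAA).
Dusp1: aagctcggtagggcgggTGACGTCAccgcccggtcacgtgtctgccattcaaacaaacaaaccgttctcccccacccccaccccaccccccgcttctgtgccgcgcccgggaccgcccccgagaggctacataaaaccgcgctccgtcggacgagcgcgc
Fos: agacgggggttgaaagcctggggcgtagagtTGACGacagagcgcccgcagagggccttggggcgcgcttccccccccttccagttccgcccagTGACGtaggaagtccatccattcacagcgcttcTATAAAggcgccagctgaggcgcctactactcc
Junb: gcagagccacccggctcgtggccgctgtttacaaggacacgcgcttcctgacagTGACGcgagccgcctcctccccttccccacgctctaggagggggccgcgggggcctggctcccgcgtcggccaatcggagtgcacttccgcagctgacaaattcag
Nr4a1: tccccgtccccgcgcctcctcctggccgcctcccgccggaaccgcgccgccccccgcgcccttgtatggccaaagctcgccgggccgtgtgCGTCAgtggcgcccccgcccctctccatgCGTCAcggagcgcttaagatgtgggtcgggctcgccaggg

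The motifs were searched on both strands in the promoter window of the table, from 250 before to 50 bases after the start, for the 8 members whose promoters were in the RefSeq table used (all but Egr1 and Ier2) and for all 32851 promoters in it. A full CRE was found in 1 of the 8, Dusp1, where it begins 143 bases upstream of the start, against 1.79% of all promoters. The half-site, which was added to the search after the sequences had been seen and which also lies within the full site, was found in 6 of the 8, in all but Jun and Klf6, against 20.8% of all promoters. The letters of an EGR site (GCGNGGGCG) were found in 2 of the 8, beginning 50 bases upstream in Fosb and 60 bases upstream in Nr4a1, against 5.55%. A TATA box was found in 2 of the 8, 33 bases upstream in Fos and at the RefSeq start itself in Junb, against 13.6%. The GENCODE model of Junb starts further downstream, at chr8:84978718, and the box lies upstream of that start. None of the 8 windows held the letters of an AP-1 site (TGANTCA, 7.81% of all promoters) or of a CArG box, the site of SRF (1.63%). Sites beyond the window, and any in the promoters of Egr1 and Ier2, were not searched. These matches describe letters only, and say nothing of binding.

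The libraries held 19130209 to 23029089 counts, at which 3 counts, taken here as a floor that covers counting error only, correspond to 0.126 to 0.162 CPM (counts scaled to library size with TMM factors). Log2 CPM of the INK128 libraries correlated with r = 0.980 and those of the controls with r = 0.806 across genes, which are not independent replicates. The granulosa cell marker Foxl2 was present in every library, at 145 to 373 CPM, whereas the oocyte markers Zp3 and Ddx4, at 129 to 171 and 4.58 to 7.98 CPM in the other libraries, were at 3.32 and 0.630 CPM in Control 3. Control 1 alone had 1021 counts of 4 Y-linked genes, against 2 or fewer elsewhere, although the methods name female gonads, and a summed level of 5 Sertoli cell markers of 1104 CPM against 63.0 to 125 CPM. Control 3 had the highest summed levels of 7 luteal and theca markers, 10785 CPM against 774 to 5016 CPM. The controls thus differed from each other in the markers of several cell types, and the difference of each member is given below with and without each control.

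Dusp1 fell in the INK128-treated rOvaries, below both controls, and it was the single member called a differentially expressed gene (DEG) by edgeR. Klf6 was lower in both INK128 libraries as well, by a smaller margin. Fos, Fosb, Atf3, Jun and Junb were highest in Control 1, while Control 3 lay far nearer to the INK128 libraries, and Egr1, Ier2 and Nr4a1 overlapped between the groups.

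**Figure D1:**
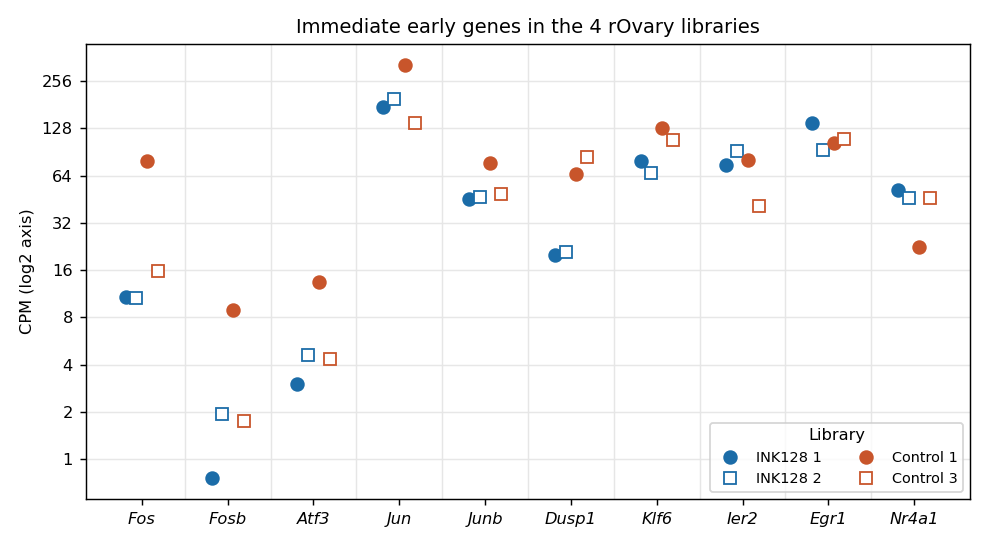
CPM of the 10 immediate early genes in each of the 4 rOvary libraries, on a log2 axis, with 1 point per library and no error bars. Dusp1 and Klf6 have both INK128 points under both control points with the controls close together, whereas for Fos, Fosb, Atf3, Jun and Junb the point that stands apart is Control 1.

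DUSP1 dephosphorylates p38, JNK and ERK in the nucleus and is itself induced by the signals it ends. Dusp1 (chr17:26505590-26562128 in mm10, minus strand) was at 19.9 and 21.0 CPM in INK128 1 and 2 and at 65.4 and 83.6 CPM in Control 1 and 3. The groups did not overlap, and the INK128 libraries were nearly equal. The control mean was 74.5 ± 12.9 CPM (SD, n = 2) and that of the treated rOvaries 20.5 ± 0.801 CPM (SD, n = 2), a 3.67-fold lower level (log2 fold change −1.88, standard error [SE] 0.21, edgeR adjusted p = 0.0464). The margin under the threshold of 0.05 was small, and 3.19% of all 11758 tested genes were called lower in the same test. DESeq2 also called it (adjusted p = 1.84e-09), whereas the call was lost with limma voom (−1.86) and in the fit of all genes with a mean CPM above 1 (−1.82), both of which called 0 genes in all. With 1 control left, the spread comes from the INK128 pair alone, so only the sizes are given here for those fits. The log2 fold change was −2.04 without Control 1 and −1.69 without Control 3. Without INK128 1 or INK128 2 it was −1.85 and −1.92, with adjusted p-values of 0.381 and 0.438 in edgeR, and with offsets for exon length it was −1.98 with an adjusted p of 0.0768. Of its exon length, 11 bases (0.332%) overlap Ergic1 on the other strand.

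Markers of other cells also differed between the groups. Of 12 kidney markers, 10 were lower in both INK128 libraries than in both controls, where 34.7% of genes with a mean CPM above 1 were. Their summed levels were 57.3 and 134 CPM in INK128 1 and 2 against 514 and 1205 CPM in Control 1 and 3. Of the 9 kidney markers that passed the filter, 6 did so through the controls alone, so no count of calls is given for them. Of 13 immune markers, 8 were lower in both INK128 libraries, with summed levels of 248 and 221 CPM against 345 and 423 CPM. For these, edgeR called 0 of 7 tested ones. Of the 7, 3 passed the filter through the controls alone, so no other count is given for them. None of these markers was at 0 in all libraries. Umod (distal nephron) was at 0.377, 0.508, 6.04 and 54.5 CPM and Ptprc (leukocytes) at 7.87, 6.93, 9.39 and 46.6 CPM in INK128 1, INK128 2, Control 1 and Control 3. Smooth muscle markers lay the other way, with summed levels of 4818 and 4862 CPM against 674 and 1421 CPM, and edgeR called 2 of 5 higher, where it called 3.18% of all tested genes higher. Of 11 oocyte markers, 9 were higher in both INK128 libraries, where 31.5% of genes with a mean CPM above 1 were, with summed levels of 1170 and 862 CPM against 838 CPM in Control 1 and 27.9 CPM in Control 3. The part of these cells in the level of Dusp1 was not tested, and in bulk tissue fewer cells of a type and less RNA per cell cannot be told apart.

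KLF6 is a zinc finger factor that binds GC-rich promoters. Klf6 (chr13:5861482-5870394) had 1461 and 1437 counts in INK128 1 and 2 and 2898 and 2580 counts in Control 1 and 3, or 72.6 ± 8.74 CPM (SD, n = 2) with treatment and 118 ± 13.7 CPM (SD, n = 2) without. The groups did not overlap, and the controls differed 1.18-fold. The log2 fold change of −0.71 (SE 0.19) did not pass the test in edgeR (adjusted p = 0.0778) and passed in DESeq2 (adjusted p = 0.0163). The size was −0.59 without Control 1 and −0.83 without Control 3.

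FOS is the best known partner of JUN in AP-1, and its transcript is short-lived. Fos (chr12:85473890-85477273) had 200 and 231 counts in INK128 1 and 2, 1799 counts in Control 1 and 377 counts in Control 3, which is 10.8, 10.7, 79.3 and 15.8 CPM. The INK128 libraries were nearly equal and below both controls, and the controls differed 5.01-fold. Its log2 fold change of −2.16 was the largest in size among the members but had a standard error of 0.79 and did not pass in edgeR (adjusted p = 0.128), whereas DESeq2 called it (adjusted p = 0.0177). Without Control 1 the log2 fold change was −0.57 and without Control 3 it was −2.90.

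FOSB is a second FOS protein, and ATF3 is a stress-induced factor of the related ATF and CREB family. Both genes had a mean CPM under 10, so their tests come from the fit of all 17631 genes whose mean was above 1. In that fit edgeR called 0% of the genes, while 5797 had an unadjusted p below 0.05 and DESeq2 called 2402 lower and 1791 higher. Fosb (chr7:19302696-19310051, minus strand) had 14, 42, 203 and 42 counts in INK128 1, INK128 2, Control 1 and Control 3, or 0.755, 1.94, 8.95 and 1.76 CPM. Atf3 (chr1:191170296-191218039, minus strand) had 3.02 and 4.58 CPM with INK128, 13.5 CPM in Control 1 and 4.32 CPM in Control 3. For both, Control 3 lay between the INK128 libraries, and Control 1 was 5.07-fold and 3.12-fold above Control 3. Their log2 fold changes of −1.94 (SE 0.98, adjusted p = 0.232) and −1.19 (SE 0.66, adjusted p = 0.266) did not pass in edgeR and became −0.33 and −0.14 without Control 1. Without Control 3 they were −2.67 and −1.78.

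JUN is the main JNK target in AP-1, and JUNB is its relative with weaker activating function. Jun (chr4:95049034-95052222, minus strand) was at 175 and 196 CPM with INK128, 326 CPM in Control 1 and 138 CPM in Control 3. The INK128 libraries lay between the controls, and the log2 fold change was −0.33 (SE 0.44, edgeR adjusted p = 0.600). It turned to 0.42 without Control 1 and was −0.83 without Control 3. Junb (chr8:84974484-84978718, minus strand) was at 45.4 and 46.5 CPM with INK128, 77.1 CPM in Control 1 and 48.6 CPM in Control 3. Control 3 was just above the INK128 libraries, and the log2 fold change was −0.46 (SE 0.27, edgeR adjusted p = 0.277). It was −0.09 without Control 1 and −0.76 without Control 3. Of the exon length, 7.28% of Jun overlaps the antisense gene Junos and 7.52% of Junb overlaps Prdx2 on the other strand, and the counting is not stated to use strand, so reads there cannot be told apart.

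**Figure D2:**
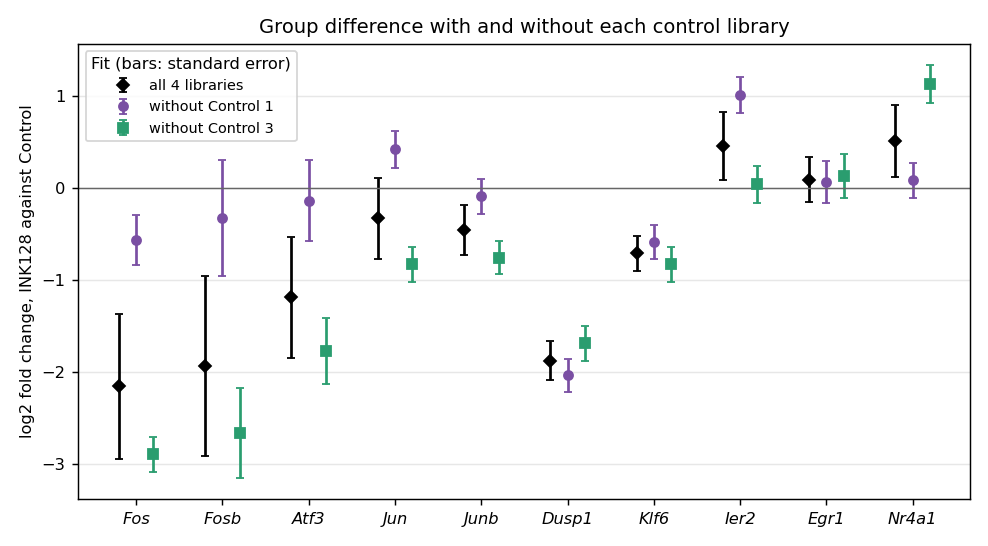
Log2 fold change of INK128 against Control for each immediate early gene, from edgeR with all 4 libraries (diamonds), without Control 1 (circles) and without Control 3 (squares), with bars for the standard error. The 3 values lie together for Dusp1, Klf6 and Egr1 and far apart for Fos, Fosb, Atf3 and Jun, and those of Ier2 and Nr4a1 move in opposite directions when a control is left out.

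Egr1, Ier2 and Nr4a1 were the members whose fitted log2 fold change was above 0, and none passed the test in edgeR or DESeq2 with all libraries. EGR1 is a zinc finger factor induced through SRF. Egr1, on chromosome 18, was at 138, 92.9, 104 and 109 CPM in INK128 1, INK128 2, Control 1 and Control 3, so both controls lay between the INK128 libraries. Its log2 fold change was 0.09 (SE 0.24, edgeR adjusted p = 0.794), was −0.04 with scaling by library totals alone, where the median of all tested genes was −0.16, and ranged from −0.23 to 0.34 over the fits that left out a library.

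IER2 is a small nuclear protein encoded by a gene without introns. Ier2 (chr8:84661331-84662852, minus strand) was at 74.5 and 92.3 CPM with INK128, 80.3 CPM in Control 1 and 41.1 CPM in Control 3. Control 3 was the low library, and the log2 fold change was 0.45 (SE 0.37, edgeR adjusted p = 0.415). It was 1.01 without Control 1, 0.04 without Control 3 and −0.04 with offsets for exon length.

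NR4A1 is an orphan nuclear receptor prominent in steroid-producing tissues. Nr4a1 (chr15:101254269-101274795) was at 52.2 and 45.8 CPM with INK128, 22.3 CPM in Control 1 and 46.0 CPM in Control 3. Here Control 1 was the low library, at 0.484 of the level in Control 3, while the other 3 libraries were close together. Its log2 fold change of 0.51 (SE 0.39, edgeR adjusted p = 0.380) was 0.08 without Control 1 and 1.13 without Control 3.

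The 8 members tested at a mean CPM above 10 exceeded it in the mean of each group. Of them, edgeR called 1 lower and 0 higher, against 3.19% lower and 3.18% higher of all tested genes. At an unadjusted p below 0.05, 3 of the 8 were lower and 0 higher, against 18.7% and 17.7% of all tested genes. DESeq2 called 3 lower (Fos, Dusp1 and Klf6) and 0 higher, against 15.1% and 13.6% of all tested genes. The median log2 fold change was −0.40 for the members and −0.03 for all tested genes. Both INK128 libraries were below both controls in 4 of the 8 (Fos, Junb, Dusp1 and Klf6), where 33.3% of all tested genes were, and above both in 0, where 35.2% were. Over all 10 members it was 4 of 10, against 34.7% of genes with a mean CPM above 1.

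Among the alternatives run, leaving out Control 3 moved the count of members called lower the most. Without Control 1, edgeR called 2 of the 8 lower (Dusp1 and Klf6) and 1 higher (Ier2), where 23.2% and 22.7% of all tested genes were called. Without Control 3 it called 5 lower (Fos, Jun, Junb, Dusp1 and Klf6) and 1 higher (Nr4a1), where 21.4% and 21.2% were called. With 1 control left, that library is assumed to vary as the INK128 pair does. The median of the members was −0.02 in the first fit and −0.79 in the second.

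The spread between the controls was therefore set out by itself. Control 1 was more than 2-fold above Control 3 in 2 of the 8 members, Fos and Jun, and in 4 of all 10, with Fosb and Atf3, where 7.26% of genes with a mean CPM above 10 and 11.0% of genes with a mean above 1 were. Control 3 was more than 2-fold above Control 1 in 1 member, Nr4a1, where 6.51% of genes were. These differences are of log2 CPM with a pseudocount of 0.5, on which the INK128 libraries were more than 2-fold apart in 0 of the 8 members and in 118 of the 11758 genes. Of the other 2 members, Fosb was close to that limit on this scale, at −0.96 for INK128 1 minus INK128 2, and beyond it as plain CPM (0.755 and 1.94). Of the 10 members, 6 were highest in Control 1, 1 in Control 3, 2 in INK128 1 and 1 in INK128 2.

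**Figure D3:**
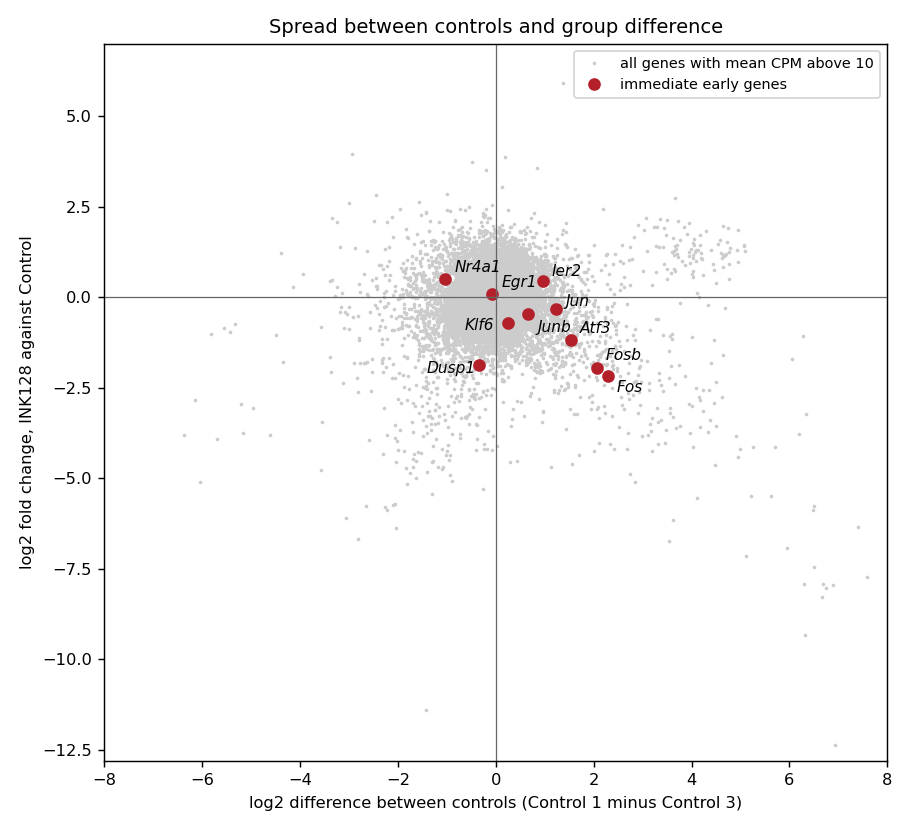
Log2 difference between the controls (Control 1 minus Control 3, horizontal axis) against the log2 fold change of INK128 against Control (vertical axis) for all tested genes (grey) and the immediate early genes (red). Fos, Fosb, Atf3 and Jun lie to the right, where the controls are over 2-fold apart, and Dusp1 lies low with the controls 0.35 apart.

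Set against exon length, the members spanned a wide range of levels. In CPM per kb of exon (GENCODE models), Jun had the highest median level over the 4 libraries, 58.3, followed by Ier2 (50.9), Egr1 (23.9), Klf6 (21.3), Junb (20.7), Nr4a1 (13.1), Dusp1 (13.0), Fos (5.66), Atf3 (2.07) and Fosb (0.297). The ranges over the 4 libraries overlapped between all neighbours in this order except Junb, at 19.7 to 33.5, and Nr4a1, at 6.34 to 14.9. The order differed between libraries. Fos, at 33.7 in Control 1, was above Junb (33.5), Klf6 (29.1) and Egr1 (23.3) there and below them in the other 3 libraries. Dusp1 would rank above Nr4a1 in both controls (19.7 and 25.2 against 6.34 and 13.1) and below it in both INK128 libraries (6.01 and 6.35 against 14.9 and 13.1).

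Which FOS gene was most abundant differed between the libraries. On the scale of CPM per kb, Fos made up 17.2% and 21.0% of the summed level of the 4 FOS genes in INK128 1 and 2, 74.9% in Control 1 and 10.4% in Control 3. Fosl2, which encodes a FOS protein less tied to acute stimuli, made up 78.5% and 73.6% with INK128, 20.9% in Control 1 and 86.8% in Control 3. Control 1 was thus the library led by Fos, and the other 3 were led by Fosl2. Among the JUN genes Jund led in every library, with 65.2% to 79.8% of the summed level, and Jun made up 15.2% to 23.4%. Fosl2 itself was at 203, 154, 91.0 and 546 CPM in INK128 1, INK128 2, Control 1 and Control 3, with a log2 fold change of −0.85 (SE 0.83, edgeR adjusted p = 0.489).

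**Figure D4:**
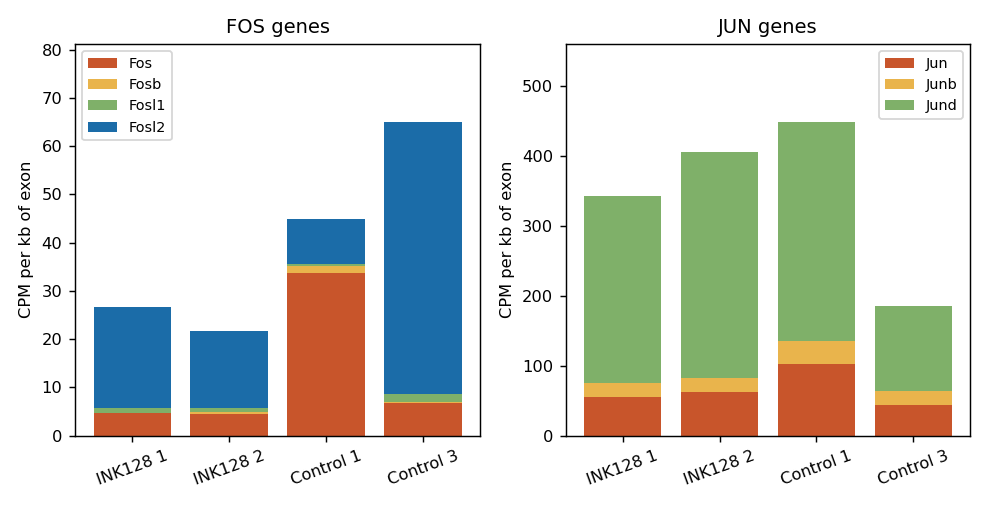
Stacked CPM per kb of exon of the FOS genes (left) and the JUN genes (right) in each rOvary library, with 1 bar per library and no error bars. Fos fills most of the FOS bar in Control 1 and Fosl2 most of it in the other 3 libraries, while Jund fills most of every JUN bar.

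Other genes that are induced in the same way were examined as lists, whose counts stand beside these shares of all 11758 tested genes: edgeR called 3.19% lower and 3.18% higher, 18.7% were lower and 17.7% higher at an unadjusted p below 0.05, DESeq2 called 15.1% lower and 13.6% higher, and 33.3% were lower in both INK128 libraries than in both controls. Among 10 tested immediate early transcription factors that are no members, edgeR called 1 lower and 0 higher (3 lower and 1 higher at an unadjusted p below 0.05, 2 and 1 by DESeq2), with a median log2 fold change of 0.23. The 1 that fell was Bhlhe40, a basic helix-loop-helix repressor, at 33.9 and 26.0 CPM with INK128 against 82.8 and 69.4 CPM in controls (log2 fold change −1.36, edgeR adjusted p = 0.0480), and the list lost this call with GC content offsets, with exon length offsets, with limma voom, at a mean CPM above 1 and without either INK128 library. The counts of this list rose when either control was left out, as did those of all tested genes. Among 23 tested immediate early genes that encode no such factor, edgeR called 0 (6 lower and 0 higher at an unadjusted p below 0.05, 4 lower and 0 higher by DESeq2), the median was −0.51, and 13 were lower in both INK128 libraries than in both controls. Its largest differences were those of Sgk1, a kinase activated downstream of mTOR complex 2, at 38.1, 36.0, 65.8 and 278 CPM in INK128 1, INK128 2, Control 1 and Control 3 (log2 fold change −2.23, edgeR adjusted p = 0.102), and Ier3, at 10.7, 8.83, 45.9 and 13.5 CPM (−1.62, edgeR adjusted p = 0.145), which passed the filter through the controls alone. Ier3 had the order of Fos, with Control 1 far above the rest, whereas Sgk1 was highest in Control 3. For this list edgeR called 4 lower and 3 higher without Control 1 (23.2% and 22.7% of all tested genes), and 12 lower and 1 higher without Control 3 (21.4% and 21.2%). Among 7 tested AP-1 relatives edgeR called 0 (2 lower and 0 higher at an unadjusted p below 0.05, 1 lower by DESeq2), with a median of −0.61, and Atf7 was at 39.5 and 42.5 against 67.6 and 79.5 CPM (log2 fold change −0.86, edgeR adjusted p = 0.0562). This list had 3 lower and 1 higher without Control 1, and 2 lower and 1 higher without Control 3.

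Of the kinases and factors upstream, edgeR called 1 or 2 genes lower and 0 higher in each list, where it called 3.19% of all tested genes lower, and 18.7% of them were lower at an unadjusted p below 0.05. Among 18 tested genes of the ERK cascade, 1 was called lower and 0 higher by edgeR (5 and 2 at an unadjusted p below 0.05, 3 and 2 by DESeq2), with a median log2 fold change of −0.11. This was Rps6ka2, which encodes a ribosomal S6 kinase activated by ERK, with 626 and 704 counts in INK128 1 and 2 against 2910 and 4252 counts in Control 1 and 3, or 33.1 ± 0.860 and 153 ± 35.5 CPM (SD, n = 2 each, log2 fold change −2.22, edgeR adjusted p = 0.0464). Among 13 tested kinases of the JNK and p38 branches, 2 were called lower and 0 higher by edgeR (6 and 0 at an unadjusted p below 0.05, 3 and 0 by DESeq2), with a median of −0.49. One of these calls was Mapkapk3, a kinase activated by p38, at 4.58 and 3.97 with INK128 against 20.3 CPM or more in controls (log2 fold change −2.57, edgeR adjusted p = 0.0464). Mapkapk3 passed the filter through the controls alone, so its call is given as a value only. The called gene above the filter in both groups was Map3k1, a kinase near the top of the JNK branch. It was at 35.3 and 33.0 against 71.5 and 68.6 CPM (−1.05, edgeR adjusted p = 0.0473). Among 17 tested genes of SRF, CREB and MEF2 and their partners, 1 was called lower and 0 higher by edgeR (5 and 2 at an unadjusted p below 0.05, 5 and 1 by DESeq2), with a median of −0.29. This was Ep300, a histone acetyltransferase that CREB recruits, at 52.0 and 43.9 against 100 and 119 CPM (log2 fold change −1.21, edgeR adjusted p = 0.0475). All 3 lists lost their calls with exon length offsets, with limma voom, at a mean CPM above 1 and without either INK128 library, and with GC content offsets the list of Ep300 had 0 calls and that of the JNK and p38 branches 1. Without Control 1 the 3 lists, in the order given, had 4, 4 and 6 lower and 3, 0 and 2 higher, where 23.2% and 22.7% of all tested genes were called. Without Control 3 they had 3, 5 and 6 lower and 3, 1 and 1 higher, where 21.4% and 21.2% were called.

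Genes that report or restrain ERK activity did not pass in edgeR with all libraries. Of 9 tested genes it called 0 (4 lower and 0 higher at an unadjusted p below 0.05, where 18.7% of all tested genes were lower, and 4 lower and 0 higher by DESeq2, where 15.1% were), with a median log2 fold change of −0.74 and 5 below both controls in both INK128 libraries, where 33.3% of all tested genes were. At the filter of at least 1 count edgeR called 1 lower, where it called 1953 of all genes lower. The number called lower also rose when either control was left out, as did that of all tested genes. Dusp5, a nuclear ERK phosphatase, was at 8.25 and 6.93 against 18.2 and 13.2 CPM (log2 fold change −1.06, edgeR adjusted p = 0.0933), with a mean above the filter in the controls alone, and Etv5, an ETS factor, at 15.8 and 13.3 against 28.9 and 22.8 CPM (−0.84, edgeR adjusted p = 0.0988). Of the 5 other MAP kinase phosphatases related to DUSP1, only Dusp16 had a mean CPM above 10, at 23.9 and 19.9 against 48.9 and 39.6 CPM (log2 fold change −1.03, edgeR adjusted p = 0.0592), and DESeq2 called it lower. Among 4 tested partners of EGR and NR4A proteins edgeR called 0 (1 lower and 0 higher at an unadjusted p below 0.05, 1 lower by DESeq2), with a median of 0.15, Nab1, a corepressor of EGR1, at a log2 fold change of −0.89 (edgeR adjusted p = 0.0543) and Rxrb, a partner receptor of NR4A1, at 0.38 (edgeR adjusted p = 0.181).

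Heat shock genes, which like Fos and Atf3 respond to protein stress and to handling, often had the same library at the top. Control 1 was more than 2-fold above Control 3 in 7 of 15 tested heat shock genes, where 7.26% of all tested genes were, and the median log2 difference between the controls was 0.92, against −0.01 for all tested genes and 0.45 for the 8 tested members. Hspb1, a small heat shock protein, was at 53.2, 51.7, 207 and 28.3 CPM in INK128 1, INK128 2, Control 1 and Control 3 (log2 fold change −1.18, edgeR adjusted p = 0.385). Hspa1a, the inducible HSP70 gene, which was picked after its values were seen and is nearly identical to Hspa1b so that reads could be split between them, was at 21.5, 36.9, 112 and 9.07 CPM. Cryab, a small heat shock protein of muscle and lens, went the other way, at 72.4 and 78.1 against 39.6 and 23.6 CPM (log2 fold change 1.24, edgeR adjusted p = 0.0653). With all libraries edgeR called 0 of the 15 (0 lower and 2 higher at an unadjusted p below 0.05, 0 and 2 by DESeq2, where 17.7% and 13.6% of all tested genes were higher). Without Control 1 it called 0 lower and 7 higher (23.2% and 22.7% of all tested genes), and without Control 3 it called 7 lower and 2 higher (21.4% and 21.2%). The part of handling, of temperature or of tissue make-up in these differences between the controls was not tested.

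**Figure D5:**
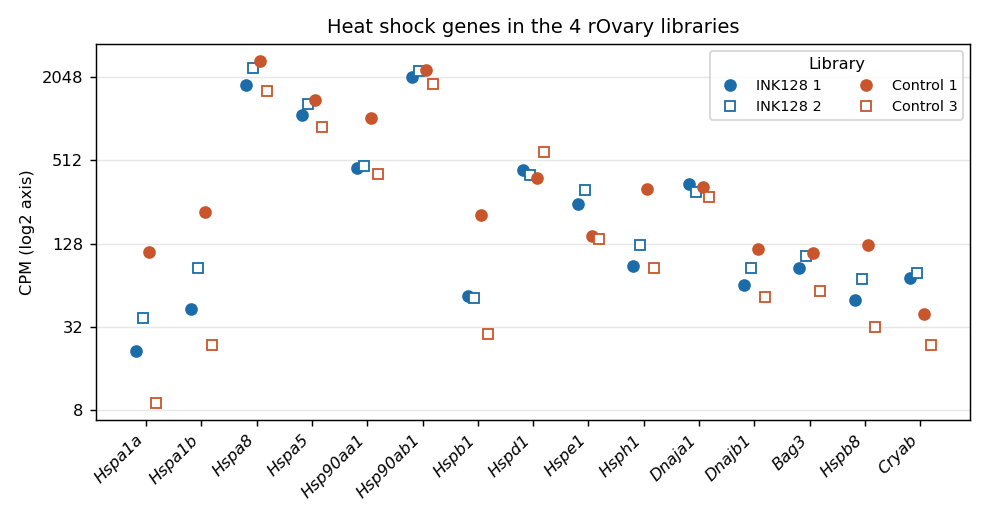
CPM of 15 heat shock genes in each rOvary library on a log2 axis, with 1 point per library and no error bars. Control 1 is the highest point and Control 3 the lowest for genes such as Hspa1a and Hspb1, with the INK128 libraries between them.

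Genes that answer hypoxia and luteinizing hormone, both known stimuli of immediate early genes, were examined last. Among 12 tested hypoxia genes, 1 was called lower and 0 higher by edgeR (4 and 0 at an unadjusted p below 0.05, 4 and 0 by DESeq2), against 3.19%, 18.7% and 15.1% of all tested genes lower, with a median log2 fold change of −0.30. This was Ndrg1, at 25.5 and 32.4 CPM with INK128 against 173 and 221 CPM (log2 fold change −2.78, edgeR adjusted p = 0.0464), which had the order of Dusp1 with the controls close together. The list lost this call with exon length offsets, with limma voom, at a mean CPM above 1 and without either INK128 library. Its number called lower rose when either control was left out, as did that of all tested genes. Only 3 of 11 genes that luteinizing hormone induces in granulosa cells had a mean CPM above 10, and edgeR and DESeq2 called 0 of them (0 at an unadjusted p below 0.05). At a mean CPM above 1, 9 were tested, of which edgeR called 0. At an unadjusted p below 0.05 in edgeR, 1 was lower and 3 were higher, where 3133 and 2664 of all 17631 genes were. DESeq2 called 1 lower and 1 higher, against 13.6% and 10.2% of all genes in that fit. In both INK128 libraries 4 were higher than in both controls, where 31.5% of those genes were. The 2 that DESeq2 called, picked after their values were seen, were Ptx3, a matrix protein of the cumulus, with 12, 0, 204 and 265 counts in INK128 1, INK128 2, Control 1 and Control 3 (DESeq2 adjusted p = 0.000588, edgeR adjusted p = 0.0888), and Ereg, an EGF receptor ligand, with 282, 177, 54 and 108 counts (DESeq2 adjusted p = 0.0245, edgeR adjusted p = 0.101). Runx2, a factor of luteinizing granulosa cells, was at 3.88, 3.0, 1.45 and 101 CPM in INK128 1, INK128 2, Control 1 and Control 3 (log2 fold change −3.90, edgeR adjusted p = 0.194), high in Control 3 alone, the library with the highest luteal markers, and it passed the filter through that library alone. Rgcc, a cell cycle regulator, was at 23.0 and 27.2 against 15.0 and 18.7 CPM (log2 fold change 0.56, edgeR adjusted p = 0.182).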

How the data were processed

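RNA was measured in 4 rOvary libraries, grouped by the treatment in the labels. According to the study's methods, reads were trimmed with Trimmomatic, aligned to mm10 with Hisat2 and counted per gene with featureCounts and an annotation named RefGene. Versions and strand settings are not given in the sources used here. The library kit was NEBNext Ultra RNA on polyA RNA. What the authors deposited are raw counts of reads for each gene symbol, not normalized and not pooled. Library totals were 19130209 to 23029089 counts, which limits low genes such as Fosb most.

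From these counts, CPM were computed with TMM factors. INK128 and Control were compared with the quasi-likelihood F-test of edgeR 4.0.16 (R 4.3.3) on 11758 genes, those whose mean CPM exceeded 10, and p-values were adjusted over all of them by Benjamini-Hochberg. A gene was called at an adjusted p under 0.05 with a change of over 1.5-fold. For members below that filter the fit was repeated on the 17631 genes whose mean CPM exceeded 1. The SE of a log2 fold change is its size divided by the root of F, and log2 CPM used a pseudocount of 0.5. For a single gene, the smallest two-sided p of an exact permutation test of 2 against 2 libraries is 0.333. The tests were checked on simulated counts of the same genes.

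The alternatives were DESeq2 1.42.0, limma 3.58.1 (voom), other scaling (relative log expression, upper quartile, library totals), other filters, offsets for exon length and GC content, no fold change limit, and leaving out each library. Exon models came from GENCODE M21 (mm10) and promoters from RefSeq (GRCm38.p6). The named genes were all 10 members and, from each related list, up to 3 called genes or, where none was called, the 2 with the largest fold change. Jund, Hspa1a, Ptx3, Ereg and the cell type markers given with values are named outside this rule. The members and lists were chosen with earlier results of these data known.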

Additional observations from a re-analysis of the deposited data

How the results depend on the processing

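With 2 libraries per group, adjusted p-values close to 0.05 and controls that differ widely, single calls depend on the settings. Of 146 alternatives for single members, 124 kept direction and side of the threshold, 5 lost the call (all for Dusp1), 12 gained it and 5 changed sign. Dusp1 was the single member with a call to lose, and most of the gains came from the fits with 1 control. The cause of these changes was not tested. The sign changes were Jun at 0.42 without Control 1 (range −0.83 to 0.42 over the fits without 1 library), Egr1 at −0.04 with library totals alone, −0.07 with GC content offsets and −0.23 without INK128 1 (range −0.23 to 0.34), and Ier2 at −0.04 with exon length offsets. Dusp1 lost its call with limma voom (−1.86), at a mean CPM above 1 (−1.82), with exon length offsets (−1.98) and without either INK128 library.

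The members called lower numbered 1 of 8, where 3.19% of all tested genes were called lower, and 3 of 8 with DESeq2, where 15.1% were. There were 2 at the filter of at least 1 count, where 1953 of all genes were called lower. Limma voom, a mean CPM above 1 and exon length offsets each gave 0, for the members and for all genes. At an unadjusted p below 0.05, voom had 2 of 8 members lower, against 1828 of 11758 genes. The length offsets had 4 of 8, against 1421 of 11758 genes, and the lower filter 3 of 10, against 3133 of 17631. Dusp1 lost its call without INK128 1 or INK128 2. The counts without each control stand further above, beside the shares of all tested genes. The members' median of −0.40 ranged from −0.79 (without Control 3) to −0.02 (without Control 1) when 1 library was left out.

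Over all tested genes, 374 were called higher and 375 lower. DESeq2 called 1595 and 1772, limma voom 0 and 0 (3979 at an unadjusted p below 0.05), upper quartile factors 567 and 396, library totals alone 293 and 627, the filter at a mean CPM above 1 called 0 and 0 (5797), CPM above 10 in at least 2 libraries 728 and 834, at least 1 count 1152 and 1953, exon length offsets 0 and 0 (3167), and GC content offsets 303 and 240. Leaving out 1 library gave 0 to 2664 higher and 0 to 2723 lower, with 0 without INK128 1 or INK128 2 (1525 and 1338 at an unadjusted p below 0.05), 2664 and 2723 without Control 1, and 2493 and 2518 without Control 3.

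No paired analysis was possible because the groups share only the replicate number 1.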
